A study of Mus musculus with 12 samples.

Results

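Interferon-stimulated genes and the genes of the MHC class I pathway were followed across 12 RNA-seq libraries of MC3T3 sc4 cells, a subclone of a mouse calvarial pre-osteoblast line. The 41 genes were chosen by name from the 23358 rows of the gene table, as sensors, transcription factors, antiviral effectors, antigen processing genes and class I genes, and all 41 had a row. The cells (C57BL/6, passage 12) were kept in osteogenic medium with ascorbic acid and β-glycerol phosphate. They received 5 µM GSK126 with 10 or 50 ng/ml bone morphogenetic protein 2 (BMP2), GSK126 alone, BMP2 alone at 10 or 50 ng/ml, or vehicle, and RNA was taken on day 6 or on day 1. Medium and agents were renewed after 3 days. GSK126 inhibits EZH2, the histone methyltransferase of Polycomb repressive complex 2, and BMP2 is a secreted factor that drives osteoblast differentiation. Each of the 12 conditions had 1 library, so no single pair of conditions has a replicate check.

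Interferons are secreted proteins that cells release on sensing viral nucleic acids. Type I interferon acts through JAK1 and TYK2 to bring a complex with STAT2 and IRF9 to interferon-stimulated response elements (ISRE), and interferon-γ acts through JAK1 and JAK2 on genes with gamma-activated sites (GAS). The same signals raise the immunoproteasome, the TAP peptide transporter and MHC class I, which show peptides of the cell's own proteins to cytotoxic T cells. Many cells also express these genes at a low level without added interferon.

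Effects were estimated with edgeR's quasi-likelihood test in an additive model that held, for each day, a GSK126 term and a term per BMP2 dose, so libraries that share a treatment stood in for replicates. Effects are log2 fold changes ± SE from the fit over 12 libraries. Each SE is the size of the effect divided by the square root of the test's F statistic. A gene was called at a Benjamini-Hochberg adjusted p under 0.05 over 12056 tested genes. Levels are CPM, each gene's share of the library's counts on a common scale, after TMM normalisation, which aligns the bulk of genes between libraries. Libraries held 74301112 to 113744802 counts, of which the rRNA precursor row Rn45s held 13.1% to 21.66% on day 6 and 8.96% to 11.71% on day 1. Osteoblast markers were abundant throughout, with a summed level of 60785 CPM or more on day 6 and 41566 CPM or more on day 1. Of 8 leukocyte markers, Ptprc and Itgam never passed 4 read pairs and Emr1 never passed 2. Their summed level was 6.65 to 13.9 CPM on day 6 and 2.71 to 3.53 CPM on day 1, and most of it came from Lyz2 on day 6. In bulk RNA, fewer cells of a type and less RNA per cell cannot be told apart.

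Of the 41 genes, 31 reached 1 CPM in at least 2 libraries and were tested. The other 10 were Oas1a, Oas2, Ifit1, Ifit3, Rsad2, Mx1, Mx2, Cmpk2, Gbp3 and Usp18. The filter keeps low genes only where they are high in more than 1 library, so counts over the 31 do not stand for all 41. Per length, in the authors' deposited RPKM, B2m was the most abundant member, with a median level of 216 RPKM over the 12 libraries. Tapbp followed at 35.6 RPKM, H2-D1 at 33.8 RPKM, H2-K1 at 14.9 RPKM and Tap2 at 11.2 RPKM. Over the libraries, the ranges of neighbours among these last 4 overlapped, whereas the lowest B2m level of 202 RPKM lay above all of them. Isg15 had a median of 2.17 RPKM and Oasl2 of 0.207 RPKM. The 5 most abundant members all belonged to antigen processing or class I, and the 10 least abundant were all antiviral effectors.

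On day 6 most members were lower with BMP2, and the class I genes were higher. BMP2 (mean of both doses against none) lowered 21 of the 31 tested members and raised 4, against 28.7% of all tested genes called, of which 15.5% were lower and 13.3% higher. The median log2 fold change of the 31 was -0.57, against 0.00 over all genes. In 8 members (Dhx58, Trim25, Irf9, Oasl2, Bst2, Psmb9, Tap1 and Tap2) all 4 BMP2 libraries lay below both libraries without BMP2, against 11.2% of all genes, and in 0 all lay above, against 9.61%. All 6 antigen processing genes fell, as did 3 of 4 sensors, 3 of 5 transcription factors and the 4 tested antiviral effectors. The 4 that rose were B2m, H2-K1, H2-D1 and Nlrc5, that is, the 3 class I genes and the transactivator of class I genes. Trim25, Irf7, Isg15, Parp14, Ifi44 and Xaf1 did not pass. GSK126 on day 6 lowered 12 members and raised the same 4, with 28.3% of all genes called (14% lower and 14.3% higher), and the median was -0.34, against 0.00 over all genes. The 3 GSK126 libraries lay below the 3 without it for Stat2, Isg15 and Tapbp, against 10.4% of all genes, and above them for H2-K1, also against 10.4%. Neither count among the 31 members exceeds the share of all genes. A fit of the day 6 libraries alone called 11 members for BMP2, against 8.72% of all genes, and 6 for GSK126, against 7.91%.

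**Figure D1:**
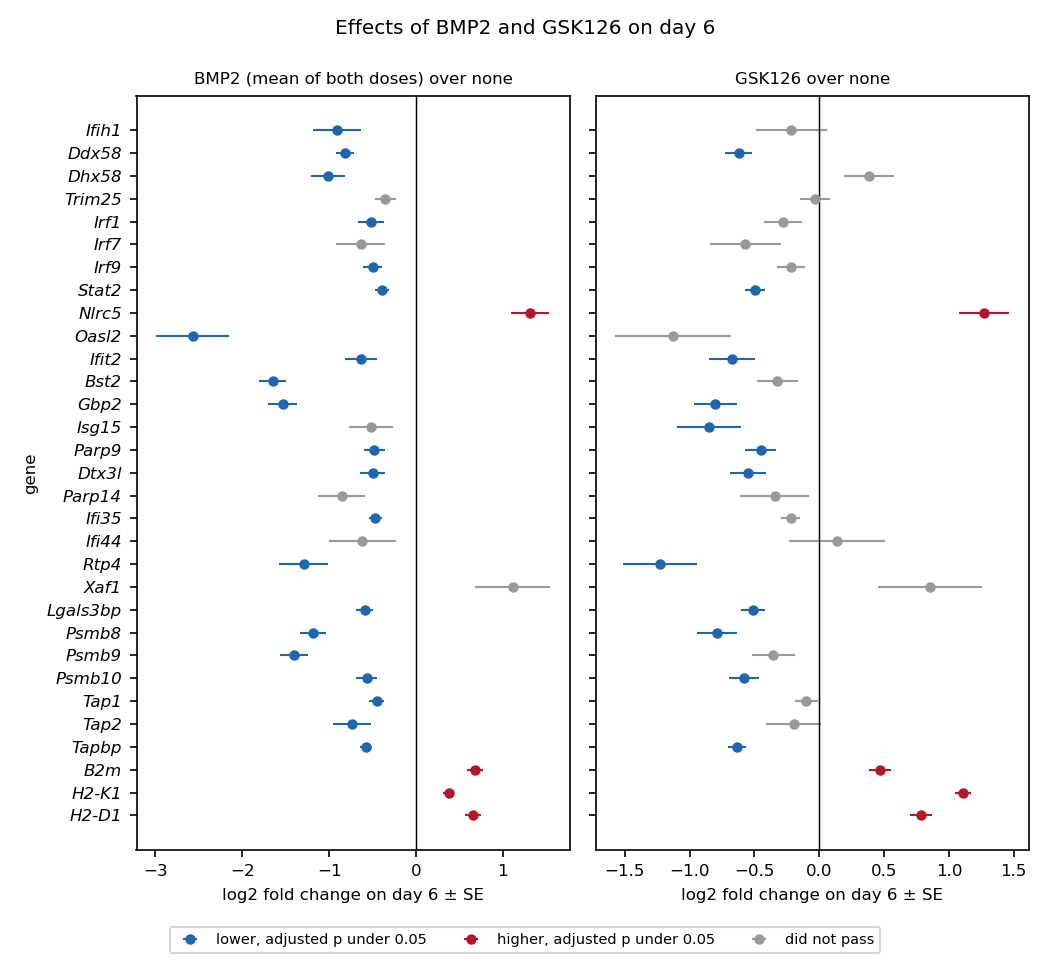
Log2 fold changes of the 31 tested members on day 6 with their SE over 12 libraries, for BMP2 (left) and GSK126 (right). Blue and red points passed an adjusted p of 0.05 and grey points did not. B2m, H2-K1, H2-D1 and Nlrc5 lie to the right of 0 in both panels, and most other genes lie to the left.

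The day 6 vehicle library stood apart for these genes. It held the highest of the 6 day 6 levels in 25 of 31 tested members, against 28.2% of all genes, and the highest of all 12 levels in 18 of 31, against 13.1% of all genes. The 6 members that peaked elsewhere on day 6 were Dhx58, Nlrc5, Xaf1, B2m, H2-K1 and H2-D1. Relative to that library, the median log2 ratio of the 31 members was -0.66 with GSK126 alone, -0.63 and -0.92 with 10 and 50 ng/ml BMP2, and -0.98 and -1.09 with GSK126 and 10 and 50 ng/ml BMP2. These ratios share 1 denominator and have no replicate check. Without the vehicle library, 14 members were called for BMP2 on day 6, 4 higher and 10 lower, against 23.6% of all genes, and all 14 were among the 25. The 10 were Ddx58, Dhx58, Oasl2, Bst2, Gbp2, Ifi35, Lgals3bp, Psmb8, Psmb9 and Tapbp, and the BMP2 effect of Lgals3bp was then -0.35. The BMP2 calls of Ifih1, Irf1, Ifit2, Dtx3l and Tap2 were also lost with any 1 day 1 library left out. For GSK126 on day 6, 13 members were then called, 5 higher and 8 lower, against 33.8% of all genes. Ifit2, Isg15, Parp9 and Dtx3l were lost and Ifi44 was gained as higher. The GSK126 calls of Ifit2, Isg15, Parp9 and Dtx3l were also lost with any 1 day 1 library left out.

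**Figure D2:**
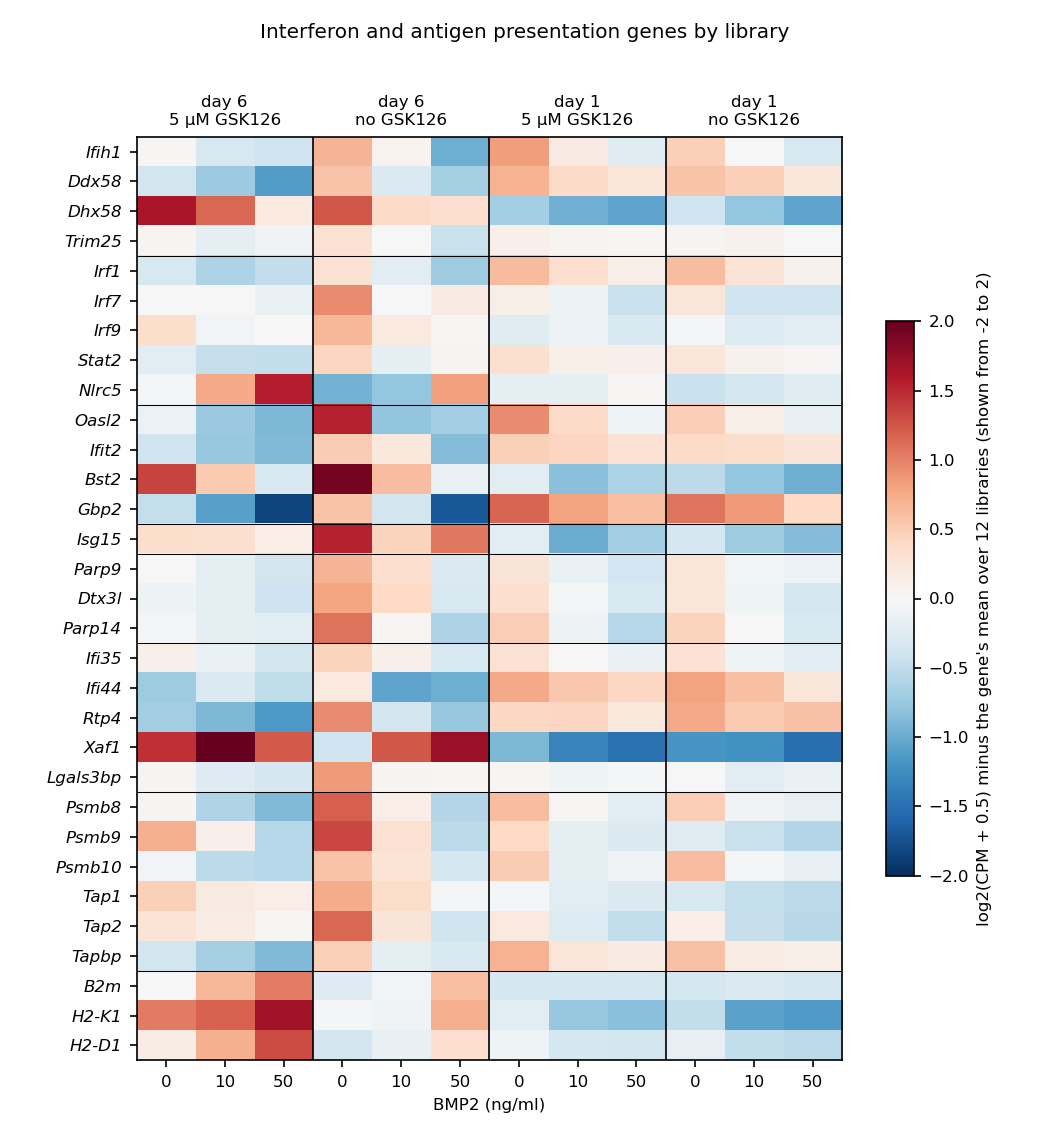
Level of the 31 tested members in each library as log2(CPM + 0.5) minus the gene's mean over the 12 libraries, from blue (lower) to red (higher). Columns run by day, GSK126 and BMP2 dose, and rows are grouped by role. The day 6 vehicle column is red for most genes, and the class I rows at the bottom are darkest red in the day 6 column with GSK126 and 50 ng/ml BMP2.

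The same library stood out among the 10 genes under the filter, which are given in read pairs (the counts are all even, so a pair is 2 counts). The day 6 vehicle library held 133 read pairs of Oas2, against 1 to 16 in the other 5 day 6 libraries. It held 104 pairs of Ifit1, against 3 to 32, and 127 of Ifit3, against 5 to 25. Oas2 makes the second messenger that activates an antiviral RNase, and the Ifit proteins bind viral RNA. Usp18, which removes ISG15 and damps interferon receptor signalling, stood at 111 pairs, against 12 to 41. For Gbp3, a guanylate-binding protein, the vehicle library had 79 pairs, against 16 to 32. Mx2, Cmpk2, Mx1 and Rsad2, further antiviral effectors, had 30, 16, 15 and 5 pairs there, against at most 10, 7, 2 and 3 pairs elsewhere on day 6. Oas1a stayed at 3 pairs or fewer in every library, at or under the 3-pair floor of 0.0527 to 0.0808 CPM. In 9 of the 10 genes the vehicle library was the highest of all 12. The filter removes genes that are high in only 1 library, so a single peak is favoured among these 10, and no share over other genes under the filter was computed. Day 1 libraries held 0 to 31 pairs of any of them. With no low-count filter, 31 of 41 members were called for BMP2 on day 6, 4 higher and 27 lower, against 17.2% of all genes. Oas1a, Rsad2, Mx1 and Mx2 did not pass, while Oas2, Ifit1, Ifit3, Cmpk2, Gbp3 and Usp18 were among those called. With GSK126 alone these had 16, 32, 25, 7, 32 and 41 pairs, against at most 9, 22, 20, 2, 21 and 36 with BMP2. Each was highest in the vehicle library, and a fit without both the filter and that library was not made.

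**Figure D3:**
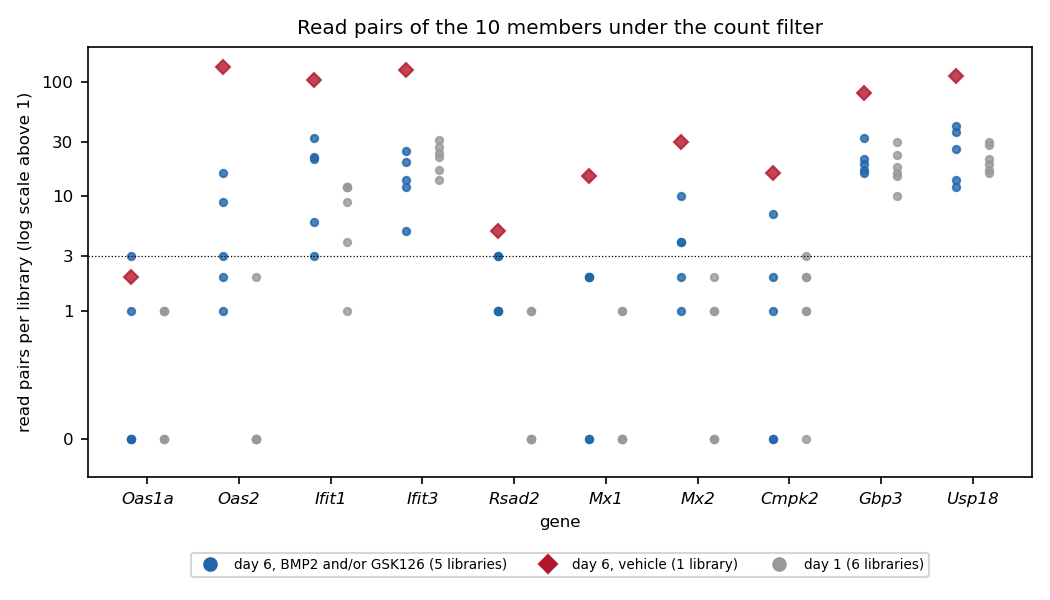
Read pairs of the 10 members that did not reach 1 CPM in 2 libraries, on a log scale above 1, with 1 point per library. The red diamond of the day 6 vehicle library tops 9 of the 10 genes, and the dotted line marks 3 read pairs.

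Promoter windows were read for both elements because most members that passed on day 6 fell with BMP2. RefSeq (GRCm38.p6) windows from 250 bases before to 50 after the start matched 31 of the 41 members by symbol. The ISRE letters GAAA, NN and GAAA in a row, on either strand, lay in 12 of the 31 (38.7%), against 3.98% of 26994 genes with a window. The GAS letters TTCNNNGAA lay in 6 of 31 (19.4%), against 9.55% of those genes. The members were picked by name as interferon-stimulated or class I genes. A high share of interferon elements therefore follows from that choice and says nothing about BMP2. Windows held the ISRE letters in 5 of 17 members that fell with BMP2 on day 6, in 1 of 3 that rose, and in 5 of 6 that were under the filter. For the GAS letters these counts were 5 of 17, 0 of 3 and 1 of 6. Stretches for 8 of the members with a match follow as examples, chosen after the matches were seen, with 20 bases on each side and matches to the element named in capitals. Overlapping matches are run together. Bst2 also holds a GAS match, TTCCAGGAA, that overlaps its first ISRE match.
Isg15, ISRE, chr4:156200855-156200916, minus strand: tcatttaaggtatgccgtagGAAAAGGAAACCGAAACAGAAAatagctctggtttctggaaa
Ifit1, ISRE, chr19:34640765-34640833, plus strand: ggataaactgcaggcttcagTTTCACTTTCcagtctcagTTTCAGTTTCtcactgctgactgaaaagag
Ifit3, ISRE, chr19:34583353-34583436, plus strand: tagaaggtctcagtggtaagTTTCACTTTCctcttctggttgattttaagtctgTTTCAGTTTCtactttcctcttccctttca
Gbp2, ISRE, chr3:142620584-142620633, plus strand: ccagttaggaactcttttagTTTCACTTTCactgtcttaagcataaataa
Bst2, ISRE, chr8:71537567-71537622, minus strand: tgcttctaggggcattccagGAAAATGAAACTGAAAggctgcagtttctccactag
B2m, ISRE, chr2:122147528-122147577, plus strand: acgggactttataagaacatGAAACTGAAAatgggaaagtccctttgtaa
Irf1, GAS, chr11:53769904-53769952, plus strand: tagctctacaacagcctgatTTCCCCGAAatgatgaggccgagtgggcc
Psmb8, GAS, chr17:34198078-34198126, plus strand: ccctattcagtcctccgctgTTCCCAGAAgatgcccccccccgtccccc
The Ifit1, Ifit3 and Gbp2 stretches share the run TTTCACTTTC. B2m, which rose with BMP2 on day 6, held the ISRE letters, as did Bst2 and Gbp2, which fell. A match of letters is a description of the window and not of binding.

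Among the sensors, Ddx58 (RIG-I) and Ifih1 (MDA5) detect viral double-stranded RNA, Dhx58 modulates them and Trim25 is a ubiquitin ligase that activates RIG-I. On day 6 Ddx58 stood at 28.6, 22.3 and 16.8 CPM at 0, 10 and 50 ng/ml BMP2 with GSK126, against 55.2, 30.2 and 23.2 CPM without GSK126. On day 1 Ddx58 was at 60.4, 48.7 and 44.2 CPM with GSK126 and at 55.7, 51.9 and 43.7 CPM without it. The gene thus stepped down with dose in both arms of both days, and on day 6 every GSK126 level lay below its partner. It fell by 0.82 ± 0.11 with BMP2 on day 6 (adjusted p = 0.0022) and by 0.62 ± 0.10 with GSK126 (adjusted p = 0.006). Trim25 was the flattest sensor, at 45.1, 38.0 and 41.5 CPM with GSK126 on day 6, against 54.0, 43.7 and 32.0 CPM without it. On day 1 it was at 46.8, 45.2 and 44.6 CPM with GSK126 and at 45.3, 46.4 and 43.7 CPM without. Its BMP2 effect on day 6 of -0.35 ± 0.12 did not pass (adjusted p = 0.069). Dhx58 fell by 1.01 ± 0.20 with BMP2 on day 6 and Ifih1 by 0.91 ± 0.28, while the GSK126 effects of both did not pass. Without the vehicle library the BMP2 effect of Ifih1 was -0.47 (adjusted p = 0.36). Ifih1 was weak, at 1.08 to 4.50 CPM on day 6 and 1.99 to 5.06 CPM on day 1.

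Of the 5 transcription factors, Irf1, Irf9 and Stat2 fell with BMP2 on day 6, Nlrc5 rose and Irf7 did not pass, while with GSK126 Stat2 fell and Nlrc5 rose. Irf1, an early interferon-γ target that drives antigen presentation genes, stood at 25.3, 20.5 and 22.3 CPM at 0, 10 and 50 ng/ml BMP2 with GSK126 on day 6, against 39.5, 27.4 and 19.1 CPM without it. On day 1 Irf1 was at 49.3, 40.0 and 34.4 CPM with GSK126 and at 49.2, 38.5 and 33.6 CPM without. The day 6 vehicle level stood apart from the other 5, both libraries without BMP2 were highest on day 1, and the GSK126 and no-GSK126 levels crossed at 50 ng/ml on day 6. The Irf1 effect of BMP2 on day 6 was -0.51 ± 0.15 (adjusted p = 0.042), and it did not pass for GSK126. Without the vehicle library the Irf1 effect of BMP2 was -0.23 (adjusted p = 0.36). Stat2 stood at 20.9, 17.6 and 17.2 CPM with GSK126 on day 6, against 33.0, 21.2 and 25.3 CPM without it. Day 1 levels of Stat2 were 30.4, 26.6 and 26.3 CPM with GSK126 and 28.8, 25.8 and 24.8 CPM without. All 3 GSK126 levels of Stat2 on day 6 lay below all 3 without GSK126. It fell by 0.50 ± 0.08 with GSK126 (adjusted p = 0.0042) and by 0.39 ± 0.08 with BMP2 on day 6 (adjusted p = 0.012). Irf9, the DNA-binding partner of STAT2, was at 6.43, 4.74 and 4.91 CPM with GSK126 on day 6, against 8.08, 5.71 and 5.08 CPM without it. On day 1 Irf9 was at 4.11, 4.50 and 3.90 CPM with GSK126 and at 4.86, 4.02 and 4.16 CPM without. The 4 BMP2 levels of Irf9 on day 6 lay below both levels without BMP2, and it fell by 0.50 ± 0.11 (adjusted p = 0.017). The BMP2 calls of Irf9 and Stat2 were lost in a fit of the day 6 libraries alone and also without the day 6 vehicle library. That of Irf9 was lost as well without the day 6 library with GSK126 and 10 ng/ml BMP2. Over the alternatives the BMP2 effects on day 6 ran from -0.645 to -0.412 for Irf9 and from -0.54 to -0.263 for Stat2. Irf7, the amplifier of type I interferon production, was at 0.665 to 2.54 CPM in all libraries and did not pass for either agent on day 6.

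Nlrc5 moved the other way. On day 6 it stood at 2.49, 4.66 and 8.52 CPM at 0, 10 and 50 ng/ml BMP2 with GSK126, against 1.08, 1.28 and 4.86 CPM without GSK126. Levels on day 1 were 2.15, 2.19 and 2.59 CPM with GSK126 and 1.74, 1.90 and 2.07 CPM without. It rose with dose in both arms on both days, and the day 6 vehicle level was its lowest of all 12. The rise was 1.31 ± 0.22 with BMP2 on day 6 (adjusted p = 0.0054) and 1.27 ± 0.20 with GSK126 on day 6 (adjusted p = 0.0042), and both calls were kept in all 19 alternative settings.

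All 4 tested antiviral effectors fell with BMP2 on day 6, with Oasl2, Bst2 and Gbp2 falling by more than Ifit2. Gbp2, an interferon-γ-induced guanylate-binding protein, stood at 3.60, 2.19 and 1.10 CPM at 0, 10 and 50 ng/ml BMP2 with GSK126 on day 6, against 7.97, 3.96 and 1.26 CPM without it. Day 1 levels of Gbp2 were 12.4, 9.54 and 8.22 CPM with GSK126 and 11.6, 9.89 and 7.07 CPM without. Gbp2 fell by 1.53 ± 0.17 with BMP2 on day 6 (adjusted p = 0.001) and by 0.80 ± 0.17 with GSK126 (adjusted p = 0.013). Its GSK126 call was lost in a fit of the day 6 libraries alone. The same call was lost without the day 6 library at 10 ng/ml BMP2, either with or without GSK126. The GSK126 gap was wide without BMP2 and small at 50 ng/ml. Bst2, or tetherin, which holds budding virions at the cell surface, was at 5.88, 3.11 and 1.53 CPM with GSK126 on day 6, against 8.90, 3.35 and 1.79 CPM without it, and at 0.777 to 1.64 CPM on day 1. Bst2 fell by 1.65 ± 0.16 with BMP2 on day 6 (adjusted p = 0.00065), and all 4 BMP2 levels lay below both without BMP2. Oasl2, an OAS-like protein, stood at 0.757, 0.319 and 0.235 CPM with GSK126 on day 6, against 3.45, 0.288 and 0.339 CPM without. It was thus 1 high library against 5 low ones, and its BMP2 effect on day 6 was -2.57 ± 0.42 (adjusted p = 0.0053), or -1.44 without the vehicle library (adjusted p = 0.023). Ifit2 stood at 13.7, 10.6 and 9.74 CPM with GSK126 on day 6, against 26.3, 21.3 and 9.79 CPM without it. On day 1 Ifit2 was nearly level, at 25.6, 24.9 and 22.5 CPM with GSK126 and at 23.9, 23.4 and 22.1 CPM without. Its day 6 effects were -0.64 ± 0.18 with BMP2 (adjusted p = 0.041) and -0.67 ± 0.18 with GSK126 (adjusted p = 0.032). Without the vehicle library they were -0.42 (adjusted p = 0.27) and -0.53 (adjusted p = 0.096).

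Isg15 is a ubiquitin-like protein that is attached to other proteins after interferon. It was at 2.85, 2.79 and 2.39 CPM at 0, 10 and 50 ng/ml BMP2 with GSK126 on day 6, against 7.17, 3.07 and 4.96 CPM without it. Day 1 levels were 1.74, 0.826 and 1.14 CPM with GSK126 and 1.57, 1.11 and 0.936 CPM without. All 3 GSK126 levels on day 6 lay below all 3 without it, and both BMP2-only libraries lay below vehicle. Isg15 fell by 0.85 ± 0.25 with GSK126 on day 6 (adjusted p = 0.041), and its BMP2 effect of -0.52 ± 0.25 did not pass (adjusted p = 0.17). Over the alternatives the GSK126 effect ran from -1.194 to -0.587. Its call was lost in a fit of the day 6 libraries alone and with any 1 day 1 library left out.

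Parp9 and Dtx3l form a complex that modifies proteins with ADP-ribose and ubiquitin, and Parp14 is a related enzyme. Parp9 stood at 16.8, 14.7 and 12.9 CPM with GSK126 on day 6 at 0, 10 and 50 ng/ml BMP2, against 27.3, 21.5 and 13.7 CPM without GSK126. On day 1 Parp9 was at 20.2, 15.4 and 12.8 CPM with GSK126 and 20.05, 16.2 and 15.5 CPM without. Dtx3l ran closely parallel, at 11.8, 11.1 and 9.44 CPM with GSK126 on day 6, against 22.4, 16.9 and 10.1 CPM without it. Day 1 levels of Dtx3l were 16.2, 12.5 and 10.2 CPM with GSK126 and 15.1, 11.9 and 9.90 CPM without. The rows of these neighbours overlap by 558 bp, and the strand setting of the counting is not given in the sources used here, so reads from the overlap cannot be told apart. With BMP2 on day 6 Parp9 fell by 0.48 ± 0.12 and Dtx3l by 0.50 ± 0.14, and with GSK126 by 0.45 ± 0.12 and 0.55 ± 0.14. Without the vehicle library the BMP2 effects were -0.28 for Parp9 (adjusted p = 0.23) and -0.21 for Dtx3l (adjusted p = 0.35), and the GSK126 effects of both did not pass either. Parp14 did not pass for either agent, at 5.14 to 18.0 CPM on day 6 and 5.33 to 11.7 CPM on day 1.

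Among the other induced genes, Lgals3bp, a secreted glycoprotein that binds galectins, stood at 29.3, 23.5 and 22.4 CPM with GSK126 on day 6 at 0, 10 and 50 ng/ml BMP2, against 51.4, 29.5 and 29.1 CPM without. On day 1 it was at 29.0, 26.6 and 27.6 CPM with GSK126 and at 28.4, 24.3 and 25.8 CPM without. The vehicle library stood apart on day 6, and Lgals3bp fell by 0.59 ± 0.10 with BMP2 (adjusted p = 0.0054) and by 0.51 ± 0.09 with GSK126 (adjusted p = 0.0084). Ifi35 was at 12.5, 10.5 and 8.92 CPM with GSK126 on day 6, against 16.0, 12.5 and 9.20 CPM without it. Day 1 levels of Ifi35 were 14.5, 11.6 and 10.5 CPM with GSK126 and 14.2, 10.9 and 9.88 CPM without. Ifi35 stepped down with dose in every arm and fell by 0.47 ± 0.07 with BMP2 on day 6 (adjusted p = 0.0045) and by 0.42 ± 0.07 on day 1 (adjusted p = 0.031). Rtp4, a chaperone of receptors, fell by 1.29 ± 0.28 with BMP2 and by 1.23 ± 0.28 with GSK126 on day 6. Without the vehicle library its effects were -0.54 for BMP2, which did not pass (adjusted p = 0.14), and -0.72 for GSK126 (adjusted p = 0.027), and the BMP2 call was also lost without the day 6 library at 10 ng/ml BMP2. Xaf1, an antagonist of an apoptosis inhibitor, stood at 53.5, 101 and 45.8 CPM with GSK126 on day 6, against 14.4, 46.0 and 64.4 CPM without it. On day 1 Xaf1 was at 10.1, 7.39 and 6.49 CPM with GSK126 and at 8.19, 8.04 and 6.46 CPM without. Its vehicle level was the lowest of day 6, but neither the BMP2 effect of 1.11 ± 0.43 (adjusted p = 0.099) nor the GSK126 effect of 0.85 ± 0.40 (adjusted p = 0.15) passed. Ifi44 lay at 1.26 to 3.68 CPM on day 6, below all day 1 levels of 3.81 to 5.93 CPM, and passed for neither agent.

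The antigen processing genes were all lower with BMP2 on day 6, but only Psmb8, Psmb9 and Tapbp kept the call in every alternative. The BMP2 calls of Psmb10, Tap1 and Tap2 were lost in a fit of the day 6 libraries alone and also without the day 6 vehicle library. Psmb8, Psmb9 and Psmb10 are the catalytic subunits of the immunoproteasome, which cuts proteins into class I peptides. Psmb8 stood at 8.59, 5.28 and 4.27 CPM at 0, 10 and 50 ng/ml BMP2 with GSK126 on day 6, against 19.7, 9.15 and 5.33 CPM without GSK126. Its day 1 levels were 12.9, 8.43 and 7.02 CPM with GSK126 and 11.9, 7.88 and 7.31 CPM without. Each dose step lowered Psmb8 in all 4 arms, and on day 6 each GSK126 level lay below its partner. The fall was 1.19 ± 0.15 with BMP2 (adjusted p = 0.0021) and 0.79 ± 0.15 with GSK126 (adjusted p = 0.01). Psmb10 stood at 11.0, 7.85 and 7.56 CPM with GSK126 on day 6, against 17.3, 14.0 and 8.90 CPM without. On day 1 Psmb10 was at 16.5, 10.0 and 10.9 CPM with GSK126 and 17.9, 11.3 and 10.2 CPM without. It fell by 0.57 ± 0.12 with BMP2 and by 0.58 ± 0.12 with GSK126 on day 6, and by 0.70 ± 0.12 with BMP2 on day 1. Over the alternatives the BMP2 effect of Psmb10 on day 6 ran from -0.714 to -0.449. The GSK126 calls of Psmb8 and Psmb10 were lost in a fit of the day 6 libraries alone. They were also lost without the day 6 library at 10 ng/ml BMP2, either with or without GSK126. Psmb9, at 1.36 to 6.44 CPM on day 6 and 1.34 to 3.14 CPM on day 1, fell by 1.41 ± 0.17 with BMP2 on day 6 (adjusted p = 0.0014), and its GSK126 effect did not pass. The 14 constitutive proteasome genes gave 0 calls for either agent on day 6, with medians of 0.03 for BMP2 and -0.03 for GSK126.

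Tap1 and Tap2 form the transporter that carries peptides into the endoplasmic reticulum, and Tapbp (tapasin) bridges it to class I. Tap2 stood at 43.1, 39.3 and 36.1 CPM at 0, 10 and 50 ng/ml BMP2 with GSK126 on day 6, against 79.7, 42.7 and 26.8 CPM without it. On day 1 Tap2 was at 40.9, 29.4 and 25.2 CPM with GSK126 and 38.9, 25.6 and 24.03 CPM without. With GSK126 the day 6 levels differed little between doses, while without it the 50 ng/ml level was the lowest of day 6. Tap2 fell by 0.74 ± 0.22 with BMP2 on day 6 (adjusted p = 0.044), but its effect was -0.19 without the vehicle library and did not pass (adjusted p = 0.41). Tapbp stood at 82.0, 66.4 and 56.9 CPM with GSK126 on day 6, against 147, 92.3 and 85.7 CPM without it. Its day 1 levels were 171, 125 and 119 CPM with GSK126 and 159, 117 and 114 CPM without. Every GSK126 level of Tapbp on day 6 lay below every level without it, and the day 1 arms did not show that split. Tapbp fell by 0.64 ± 0.07 with GSK126 on day 6 (adjusted p = 0.0011), by 0.57 ± 0.07 with BMP2 on day 6 (adjusted p = 0.0019) and by 0.47 ± 0.07 with BMP2 on day 1 (adjusted p = 0.02). Tap1 fell by 0.45 ± 0.09 with BMP2 on day 6, at 32.9 to 57.3 CPM, and its GSK126 effect of -0.10 ± 0.09 did not pass. Over the alternatives the BMP2 effect of Tap1 on day 6 ran from -0.598 to -0.317. Tap1 and Psmb9 lie 225 bp apart on chromosome 17, which carries 7 of the members. In the coordinates of the authors' table (mm10) Tapbp lies nearest to H2-K1 (chr17:33996012-34000333), followed by Psmb8 (chr17:34198195-34201454) and its neighbours and then by H2-D1 (chr17:35263094-35267497), while B2m lies at chr2:122147687-122153082.

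The class I genes themselves were highest with both agents together. H2-K1, a classical class I heavy chain, stood at 69.2, 76.0 and 107 CPM at 0, 10 and 50 ng/ml BMP2 with GSK126 on day 6, against 32.5, 31.7 and 55.0 CPM without GSK126. Its day 1 levels were 28.7, 19.5 and 18.4 CPM with GSK126 and 23.4, 15.6 and 15.0 CPM without. All GSK126 levels on day 6 lay above all levels without it, whereas BMP2 lowered the gene on day 1. H2-K1 rose by 1.11 ± 0.06 with GSK126 on day 6 (adjusted p = 7.1e-05) and by 0.37 ± 0.07 with BMP2 on day 6 (adjusted p = 0.0066), and fell by 0.61 ± 0.06 with BMP2 on day 1 (adjusted p = 0.0064). With BMP2 on day 6 it was higher in 3 of 4 matched comparisons and lower in 1. That BMP2 call was lost in a fit of the day 6 libraries alone. H2-D1, the second heavy chain, stood at 91.2, 135 and 202 CPM with GSK126 on day 6, against 63.6, 73.7 and 104 CPM without. On day 1 H2-D1 was at 77.1, 64.1 and 63.6 CPM with GSK126 and 72.9, 58.3 and 57.2 CPM without. It rose by 0.78 ± 0.08 with GSK126 (adjusted p = 0.00095) and by 0.66 ± 0.09 with BMP2 on day 6 (adjusted p = 0.0026). B2m, the invariant light chain, stood at 265, 418 and 535 CPM with GSK126 on day 6, against 221, 252 and 401 CPM without it. Day 1 levels of B2m were level, at 209, 205 and 206 CPM with GSK126 and 207, 216 and 209 CPM without. B2m rose by 0.68 ± 0.09 with BMP2 (adjusted p = 0.0025) and by 0.47 ± 0.08 with GSK126 on day 6 (adjusted p = 0.0077). H2-K1, H2-D1 and other class I genes are similar in sequence, so their values are uncertain where the counting could split shared reads. The B2m row lies within that of Patl2. Shared reads make values uncertain in the same way for the Oas, Ifit and Gbp families, which have close paralogs.

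**Figure D4:**
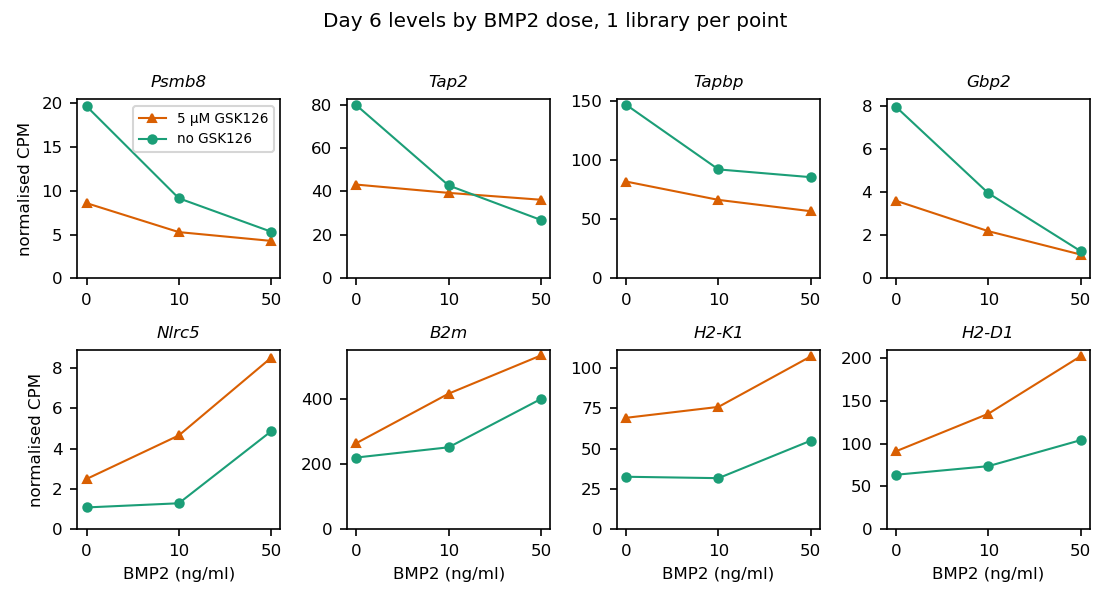
Normalised CPM on day 6 against BMP2 dose for 8 members, with 1 library per point, triangles for GSK126 and circles for no GSK126. Psmb8, Tap2, Tapbp and Gbp2 (top) step down with dose in both arms, and Nlrc5, B2m, H2-K1 and H2-D1 (bottom) are highest at 50 ng/ml with GSK126.

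Dose order was shared by many members. On day 6, 18 of 31 members had levels that fell at each step of dose both with and without GSK126, against 13.9% of all genes, and 3 rose at each step, against 12.4%. The rising 3 were Nlrc5, B2m and H2-D1. On day 1, 22 of 31 fell at each step in both arms, against 15.3% of all genes, and Nlrc5 was the 1 that rose, against 15.9%. In the test of 50 against 10 ng/ml on day 6, 7 members passed, against 11.8% of all genes. Nlrc5 (1.34 ± 0.23), H2-K1 (0.65 ± 0.07), H2-D1 (0.54 ± 0.10) and B2m (0.51 ± 0.10) were higher at 50 ng/ml, and Gbp2 (-1.31 ± 0.22), Bst2 (-0.97 ± 0.20) and Psmb9 (-0.94 ± 0.21) were lower. Among all genes 5.33% were higher and 6.47% lower, and with library size as the only scaling 2 members were higher and 5 lower. In a fit of the day 6 libraries alone, 0 members passed this test, with 0.0498% of all genes called.

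On day 1 BMP2 lowered 4 of the 31 members and raised 0, against 3.66% of all genes called (1.86% lower and 1.8% higher). H2-K1, Psmb10, Tapbp and Ifi35 were the 4. The median of the 31 was -0.43, against 0.00 over all genes, and 26 members were lower in all 4 matched comparisons, against 28.7% of all genes. In 23 members all 4 BMP2 libraries lay below both libraries without BMP2, against 20.3% of all genes, and in 0 all lay above, against 21.5%. The test shares 1 estimate of spread between the days, and a fit of the day 1 libraries alone called 25 members, all lower, against 38.9% of all genes. DESeq2 called 11 lower, against 7.56%. With any 1 of the 6 day 1 libraries left out, the first test called 0 members. Effects of -0.47 ± 0.15 for Gbp2, -0.70 ± 0.15 for Psmb8 and -0.88 ± 0.27 for Ifih1 did not pass.

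GSK126 on day 1 gave 0 calls among the members and 0% among all genes by edgeR. At an unadjusted p under 0.05 there were 3 members and 755 genes, and DESeq2 called 0 members and 6 genes (0.0498%). The 3 were H2-K1 (0.30 ± 0.06), Psmb9 (0.50 ± 0.17) and Tap1 (0.27 ± 0.09), each with an adjusted p = 0.79. The GSK126-only library had the highest day 1 level in 23 of 31 members, against 24.6% of all genes. The 3 GSK126 libraries lay above the 3 without it for 2 members, against 8.08% of all genes, and below for 1, against 6.88%. A fit of day 1 alone called 5 members higher (Psmb9, Tap1, Tapbp, H2-K1 and H2-D1), against 16.2% of all genes.

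The direct test between the days found that BMP2 acted differently on 5 members, against 9.14% of all genes (3.82% higher and 5.33% lower). The BMP2 effect on day 6 minus that on day 1 was 0.98 ± 0.09 for H2-K1 (adjusted p = 0.0023), 0.96 ± 0.12 for H2-D1 (adjusted p = 0.006) and 0.68 ± 0.13 for B2m (adjusted p = 0.021). It was -1.06 ± 0.23 for Gbp2 (adjusted p = 0.036) and -1.03 ± 0.24 for Bst2 (adjusted p = 0.045). For Nlrc5 the difference of 1.15 ± 0.29 did not pass (adjusted p = 0.057). Without the day 6 vehicle library 3 members passed, namely B2m, H2-K1 and H2-D1, against 15.3% of all genes. The GSK126 effect differed between the days in 7 members, against 10.5% of all genes (3.94% higher and 6.52% lower). It was higher on day 6 for H2-K1, H2-D1 and B2m, by 0.80 ± 0.09, 0.66 ± 0.12 and 0.49 ± 0.12. It was lower for Tapbp (-0.72 ± 0.10), Ddx58 (-0.63 ± 0.15), Lgals3bp (-0.60 ± 0.13) and Stat2 (-0.57 ± 0.11).

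**Figure D5:**
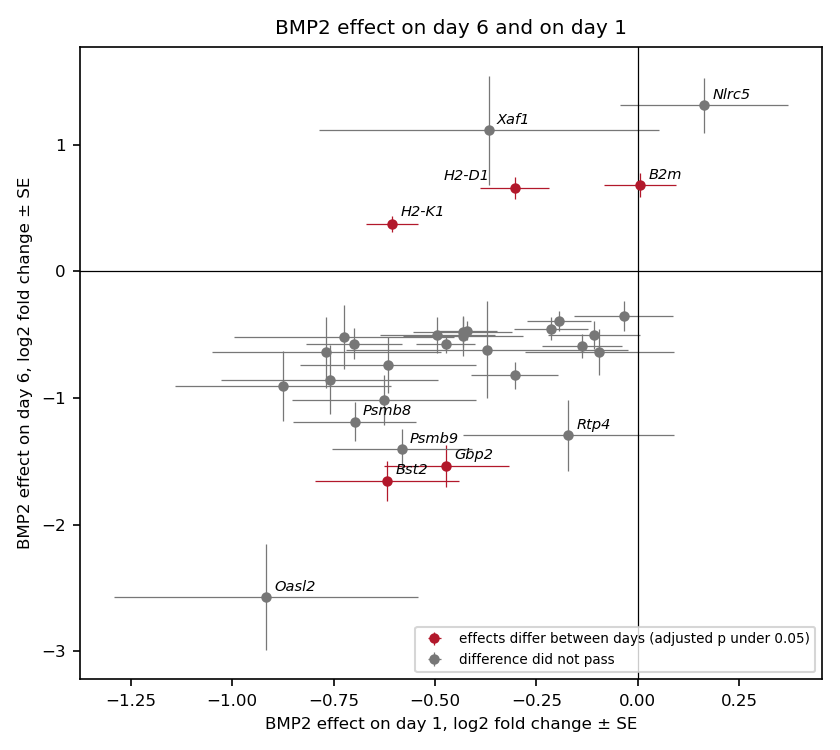
BMP2 effect on day 6 against the BMP2 effect on day 1 for the 31 tested members, as log2 fold changes with their SE. Red points are the 5 members whose effects differed between the days. H2-K1 lies at -0.61 on day 1 and 0.37 on day 6, and most genes lie below 0 on both axes.

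Whether the agents acted independently on day 6 was asked with an interaction fit. By edgeR it gave 0 calls among the members and 0% among all genes, and at an unadjusted p under 0.05 it gave 6 members (Oasl2, Parp14, Ifi44, Rtp4, Lgals3bp and Tap2) and 1125 genes. The 6 interactions were positive, that is, GSK126 lowered these genes less with BMP2 than without it, or raised them. In this fit the GSK126 effect without BMP2 is 1 library against the vehicle library. The vehicle library held the highest day 6 level of each of these 6 genes. An interaction and a single high library therefore cannot be told apart. DESeq2 called 1 member, Ifi44 at 1.91 (adjusted p = 0.0026), and 190 genes (1.58%). The median interaction of the 31 members was 0.45, against 0.00 over all genes, and it rests on the same vehicle library.

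Between the days, 13 members were higher on day 6 and 10 lower, against 78% of all genes called (40.5% higher and 37.5% lower). In 5 members all day 6 libraries lay above all day 1 libraries, against 22.1% of all genes, and in 1, Ifi44, all lay below, against 23.6%. Xaf1 was higher by 2.69 ± 0.29, Dhx58 by 2.10 ± 0.15, Bst2 by 1.65 ± 0.12, Isg15 by 1.61 ± 0.18 and H2-K1 by 1.52 ± 0.04. The effects of day were -1.85 ± 0.11 for Gbp2, -1.28 ± 0.19 for Rtp4 and -1.25 ± 0.25 for Ifi44. The share of members called was 74.2%, and with library size as the only scaling the split was 9 higher and 14 lower.

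The rest of the pathway was read from lists of genes outside the 41. Among the interferon genes of the list, Ifnb1 reached 1 read pair in 1 library, and Ifna1, Ifna2, Ifna4, Ifng, Il28a and Il28b had 0 in all. Other interferon genes were not examined. Of 6 tested interferon receptor genes, 3 rose with BMP2 on day 6 and 0 fell. All genes gave 13.3% higher and 15.5% lower for BMP2 on day 6, and 14.3% higher and 14% lower for GSK126, which are the shares to set beside each list count that follows. Ifngr1, the ligand-binding chain of the interferon-γ receptor, stood at 45.5, 73.5 and 115 CPM at 0, 10 and 50 ng/ml BMP2 with GSK126 on day 6, against 37.1, 48.3 and 77.8 CPM without it. Ifngr1 rose by 0.87 ± 0.07 with BMP2 and by 0.49 ± 0.07 with GSK126, and Ifngr2 and Il10rb rose by 0.35 ± 0.07 and 0.30 ± 0.06 with BMP2. With GSK126 on day 6, 3 of 6 rose (Ifngr1, Ifngr2 and Il28ra) and 0 fell, and Il28ra, a chain of the interferon-λ receptor, rose by 2.18 ± 0.22.

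Of 10 signalling genes, 2 rose and 3 fell with BMP2 on day 6. The kinase Jak2 stood at 135, 291 and 298 CPM with GSK126 on day 6, against 57.9, 147 and 281 CPM without it, and rose by 1.47 ± 0.21 with BMP2 and by 0.76 ± 0.19 with GSK126. Jak1, which serves all interferon receptors, fell by 0.89 ± 0.15 with BMP2, and the phosphatase Ptpn6 by 0.97 ± 0.25. With GSK126, 2 of the 10 rose (Jak2 and Stat3) and 0 fell. Among 11 tested upstream sensing genes, Irf5 (0.66 ± 0.08) and Samhd1 (0.44 ± 0.06) rose with BMP2 and 0 fell, while with GSK126 0 rose and 3 fell, including Irf5 (-0.46 ± 0.07). The 2 of 11 that rose with BMP2 are close to the 13.3% of all genes.

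Of 42 interferon-stimulated genes outside the 41, 28 were tested. With BMP2 on day 6, 16 of the 28 fell and 2 rose, against 15.5% lower and 13.3% higher among all genes, with a median of -0.49, against 0.00 over all genes. Igtp, an immunity-related GTPase, fell by 1.80 ± 0.18 and Ifi203 by 1.67 ± 0.25, whereas Ifi204 rose by 1.42 ± 0.19. Igtp was at 4.76 CPM in the day 6 vehicle library, 2.65 CPM with GSK126 alone and 0.634 to 1.86 CPM with BMP2. Ifi203 was at 4.31, 1.65 and 0.399 to 1.52 CPM in the same order. Both were highest of all 12 libraries in that vehicle library, and Ifi204 was lowest there. Calls of this list without the vehicle library were not counted. With GSK126, 12 of the 28 fell and 2 rose, against 14% lower and 14.3% higher among all genes, with a median of -0.23. Sp100, a nuclear body protein, fell by 1.11 ± 0.09, Ifi203 fell by 0.94 ± 0.25 and Ifi204 rose by 0.91 ± 0.17. Of 10 other peptide loading genes, BMP2 lowered 2, the peptidase Erap1 (-0.47 ± 0.13) and the non-classical class I gene H2-M3 (-0.36 ± 0.09), and raised 0, close to the 15.5% of all genes that were lower. GSK126 raised Hspa5 (0.33 ± 0.06) and lowered H2-T23 (-0.34 ± 0.10). Of 3 tested class II pathway genes, H2-DMa (-0.99 ± 0.16) and Rfx5 (-0.58 ± 0.08) fell with BMP2, and H2-DMb1 (0.28 ± 0.08) rose with GSK126.

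Markers of other cells were set beside these results. Lyz2, a myeloid gene, stood at 12.6, 12.4 and 8.78 CPM with GSK126 on day 6 at 0, 10 and 50 ng/ml BMP2, against 5.64, 5.16 and 4.09 CPM without it, and rose by 1.18 ± 0.13 with GSK126. Csf1r rose by 1.03 ± 0.25 with BMP2. The defining leukocyte gene Ptprc was at 0 to 0.08 CPM in every library, Cd3e was at 0 throughout and 3 endothelial markers summed to 0.22 CPM or less. All 6 osteoblast markers rose with BMP2 on day 6. The part of these genes in the class I and interferon results was not tested.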

How the data were processed

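Libraries took their groups from the sample titles, 1 for each of 12 conditions. Raw gene counts and RPKM (length-scaled) values were deposited by the authors. The submitters' processing notes name mm10, bcl2fastq, TopHat2 2.0.6 and HTSeq. Strand setting and annotation: not given in the sources used here. All 195176 counts above 0 were even, so read pairs are counts divided by 2, and a floor of 3 pairs covers counting error only. The deposited RPKM values were used only to order genes by level.

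The 12056 genes that reached 1 CPM in 2 or more libraries were normalised by TMM and tested with edgeR 4.0.16 in R 4.3.3 (quasi-likelihood, Benjamini-Hochberg adjustment at 0.05; 8 coefficients, 4 residual degrees of freedom; 9 contrasts). The interaction fit replaced the doses by any BMP2. Ratios to vehicle used log2(CPM + 0.5). Separate cultures are not stated in the labels: the p-values reflect the spread that the model leaves between libraries, which may be technical, and departures from additivity count as spread. Alternatives (19) were DESeq2 1.42.0, limma-voom 3.58.1, library size scaling, other filters, fits per day, halved counts (added after the table was seen) and each library left out. Scripts were tested on simulated data. Members and lists were chosen with earlier results of these data known, and no list test was made. Full values are given for called members with a mean of at least 5 CPM, up to 4 per role by BMP2 effect on day 6, and the most abundant member of each role; further genes with low or opposing levels were given in full after their values were seen. List genes are the largest calls, up to 3 per list. Promoter windows came from RefSeq.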

Additional observations from a re-analysis of the deposited data

Results flagged for a closer look

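The effect of an agent differed between the days, by a test of the difference itself, for 12 pairs of a member and an agent. For BMP2 the day 6 minus day 1 difference on the log2 scale was 0.98 for H2-K1, 0.961 for H2-D1, 0.675 for B2m, -1.033 for Bst2 and -1.061 for Gbp2. For GSK126 it was 0.8 for H2-K1, 0.661 for H2-D1, 0.495 for B2m, -0.722 for Tapbp, -0.634 for Ddx58, -0.596 for Lgals3bp and -0.566 for Stat2. In all alternatives that could be run, 1 of the 5 BMP2 differences was kept (H2-K1) and 2 of the 7 GSK126 differences (H2-K1 and Tapbp). The differences of B2m, Bst2 and Gbp2 for BMP2, and of B2m, H2-D1, Ddx58, Lgals3bp and Stat2 for GSK126, were lost when any 1 day 1 library was left out. Their causes were not tested.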

How the results depend on the processing

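No paired analysis was possible because each condition has 1 library and the labels carry no replicate numbers to use as a block. No called member changed sign in any of the 19 alternatives. Calls kept in every alternative numbered 11 of 25 for BMP2 on day 6, 6 of 16 for GSK126 on day 6, 18 of 23 for day, 1 of 5 and 2 of 7 for the day differences of BMP2 and GSK126, 0 of 4 for BMP2 on day 1 and 0 of 7 for the dose comparison. Fits on one day alone called 11 members for BMP2 and 6 for GSK126 on day 6, 0 for dose, and 25 for BMP2 and 5 for GSK126 on day 1. DESeq2 called 11 for BMP2 on day 1, 8 and 14 for the day differences of BMP2 and GSK126, and 1 for the interaction. The BMP2 day difference had 3 calls with at least 1 CPM in all libraries, and the GSK126 day difference 4 with library size scaling. That scaling moved the median of all genes by -0.147 for BMP2 on day 6, -0.151 for dose and -0.179 for day, and split the dose calls into 2 higher and 5 lower, against 4 and 3. With 1 library left out, the calls ranged from 14 to 30 for BMP2 on day 6 (14 without vehicle), 0 to 15 for BMP2 on day 1 (0 without any day 1 library), 1 to 18 for dose (1 without 10 ng/ml BMP2), 10 to 23 for GSK126 on day 6 (10 without 10 ng/ml BMP2, with or without GSK126), 0 to 0 for GSK126 on day 1, 21 to 25 for day, 1 to 14 and 2 to 22 for the day differences of BMP2 and GSK126, and 0 to 1 for the interaction. The interaction could not be fitted without the day 6 vehicle or GSK126-only library. The cause was not tested. Members under about 3 read pairs cannot be resolved at this depth.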
